A study of Homo sapiens with 3 samples.

Results

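Described here are 38 genes of homologous recombination, the Fanconi anaemia pathway, mismatch repair and the DNA damage checkpoint, taken by name from the gene table of a knockdown experiment. All 38 names were found among the 16662 genes of the table. All 38 also lay above a filter of a mean of at least 1 CPM (counts scaled to a common library size) over the libraries, which 13879 genes passed. From textbook knowledge they were divided into 17 replication-linked genes, known to be transcribed mainly around S phase, and 21 others, called constant here.

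The cells were H1975, an established human lung adenocarcinoma line, which the labels also describe as lung cancer tissue. Transfection was done near 70% confluency and was followed by 6 h without serum and 24 h in medium with 10% serum. The groups were cells given the control siRNA siNC, cells given siHHLA3-1 and cells given siHHLA3-3, the latter pair aimed at HHLA3. Each group held 1 library, and the sources used here do not give the siRNA sequences. Each library also carries a batch label of its own, so effects of batch and of siRNA cannot be told apart, and no p-value was computed between single libraries.

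Library totals were 32813003 counts for siNC, 35069930 for siHHLA3-1 and 26950852 for siHHLA3-3. HHLA3 itself had 5.99, 1.55 and 0.735 normalised CPM in that order. Of 10 lung epithelial markers 9 were listed, with summed levels of 5231, 5082 and 4299 TPM (counts scaled by gene length and library size). SFTPB was not listed. NKX2-1, a lung lineage factor, had 65.7, 72.0 and 35 CPM. Of 14 markers of other cell types 4 were listed, COL1A1, CDH5 and SYP among them, with summed levels of 14.9, 26.2 and 24.0 TPM. These moved in different directions: SYP had 1.62, 1.46 and 12.02 TPM, CDH5 4.47, 11.2 and 1.77 TPM, and COL1A1 4.27, 9.70 and 4.32 TPM. Their part in the results was not tested. PTPRC, CD3E, CD68, LYZ, COL1A2, COL3A1, PDGFRB, PECAM1, VWF and ALB were not listed.

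Homologous recombination copies the sister chromatid to mend broken DNA. The ends are first cut back to single strands, a protein filament forms on them with the help of the BRCA proteins and invades the sister, and the joined molecules are later taken apart. The Fanconi pathway opens crosslinks between strands: a core complex attaches ubiquitin to the pair FANCD2 and FANCI, and recombination finishes the repair. Mismatch repair corrects copying errors behind the replication fork. The kinases ATM and ATR sense the damage and pass the signal to CHEK2 and CHEK1. Many of these genes are bound by E2F transcription factors and are transcribed as cells enter S phase, so their RNA is known to follow the share of dividing cells. In bulk RNA, fewer cells in S phase and less RNA per cell cannot be told apart.

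Since E2F sites are known from promoters of replication-linked genes, the promoter windows from 250 bases before to 50 after each gene's start were searched for E2F-type letters. The windows came from RefSeq (GRCh38.p14) and were matched for 33 of the 38 genes; DNA2, RMI2, NBN, RAD54B and FANCI had no entry. The letters were TTTCCCGC, TTTCGCGC, TTTGCCGC and TTTGGCGC on both strands. They were present in 9 of 33 genes (27.3%), against 3.99% of the 27305 genes in the RefSeq table and 6.65% of the 9989 matched genes above the filter. Among replication-linked genes 5 of 13 held them (38.5%), namely EXO1, FANCA, FANCD2, MSH6 and XRCC2. Among constant genes 4 of 20 held them (20%), namely FANCC, PMS2, RMI1 and TOPBP1. Examples from both classes are shown because the letters occurred in both. The share was larger in the replication-linked genes. That class was chosen from genes known to follow S phase, mostly E2F targets, so its larger share is no independent result. Counted by window, the letters were in 23.8% of 21 replication-linked and 17.2% of 29 constant windows. Each is written along the gene's strand with the matching letters in capitals.
EXO1: aaaggtcagccTTTCGCGCgctgtgtaggc
FANCD2: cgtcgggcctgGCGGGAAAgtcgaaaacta
XRCC2: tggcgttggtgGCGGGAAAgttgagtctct
MSH6: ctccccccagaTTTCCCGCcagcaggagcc
TOPBP1: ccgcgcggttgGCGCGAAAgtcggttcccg
PMS2: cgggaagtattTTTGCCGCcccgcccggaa
These lie at chr1:241848197-241848226 (EXO1, plus strand), chr3:10026424-10026453 (FANCD2, plus), chr7:152676102-152676131 (XRCC2, minus), chr2:47783137-47783166 (MSH6, plus), chr3:133661930-133661959 (TOPBP1, minus) and chr7:6009131-6009160 (PMS2, minus). The CCAAT box (CCAAT, both strands) was present in 51.5% of the 33 genes against 39.7% of all and 43.1% of those above the filter. The letters of the CHR element (TTTGAA, both strands) were in 9.09%, against 18.2% and 13.2%. A match is a description of these letters, not a shown binding site. BRCA1, BLM and BARD1, whose values are given next, had no E2F-type letters in their windows.

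Levels are given as normalised CPM, always in the order siNC, siHHLA3-1, siHHLA3-3, and differences as log2 ratios of (CPM + 1) unless called a fold, which is a ratio of CPM. A gene was counted as lower or higher when its ratio reached 1.5-fold (0.58 on the log2 scale). Intervals are 95% counting intervals and hold no variation between cultures. The comparisons of siHHLA3-1 and of siHHLA3-3 with siNC share the siNC library, and the third comparison follows from those 2.

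With siHHLA3-1, 34 of the 38 genes lay below their siNC level, where 51.8% of all genes did. The median of the 38 was -0.30 on the log2 scale, against -0.01 over all genes above the filter. The shift was mostly small: 3 genes (BRCA1, RAD54B and XRCC2) were at least 1.5-fold lower, which is 7.89% of the 38 beside 3.34% of all genes. None was at least 1.5-fold higher, where 5.03% of all genes were. The exceptions above 0 were BRIP1, RAD51B, FANCF and ATM. Counting intervals lay wholly below the siNC level for 30 of the 38 genes and wholly above it for 1, BRIP1. The share of all genes with such intervals was not computed, so these counts have no background to be set against.

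With siHHLA3-3 the same genes did not shift in this way: 13 of 38 lay below siNC, where 51.5% of all genes did, and the median was 0.07, against -0.01 over all genes. CHEK2 and PMS2, both constant genes, were at least 1.5-fold lower, which is 5.26% of the 38 and close to the 5.57% of all genes. None was at least 1.5-fold higher, beside 3.65% of all genes. In the direct comparison of siHHLA3-3 with siHHLA3-1, 6 of 38 lay below 0, where 49.6% of all genes did. There, 7 genes (18.4%) were at least 1.5-fold higher, beside 4.4% of all genes: BLM, BRCA1, CHEK1, RAD51AP1, RAD51D, RAD54L and XRCC2. CHEK2 and PMS2 were again at least 1.5-fold lower, beside 7.82% of all genes.

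The replication-linked genes carried the larger part of the siHHLA3-1 shift. Their median was -0.41 with siHHLA3-1 and 0.05 with siHHLA3-3, and 0.53 between the siHHLA3 libraries. The constant genes had medians of -0.19, 0.09 and 0.24. With siHHLA3-1, 16 of 17 replication-linked and 18 of 21 constant genes lay below 0, so the constant genes were lower too, by less. Summed over the class, replication-linked genes had 953, 724 and 1012 CPM, and constant genes 1081, 926 and 1067 CPM. The classes overlapped gene by gene. BRIP1 and BRCA2, both replication-linked, had ratios of 0.18 and -0.12 with siHHLA3-1, while the constant genes FANCM, RAD51C and RAD51D had -0.44, -0.44 and -0.40.

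**Figure D1:**
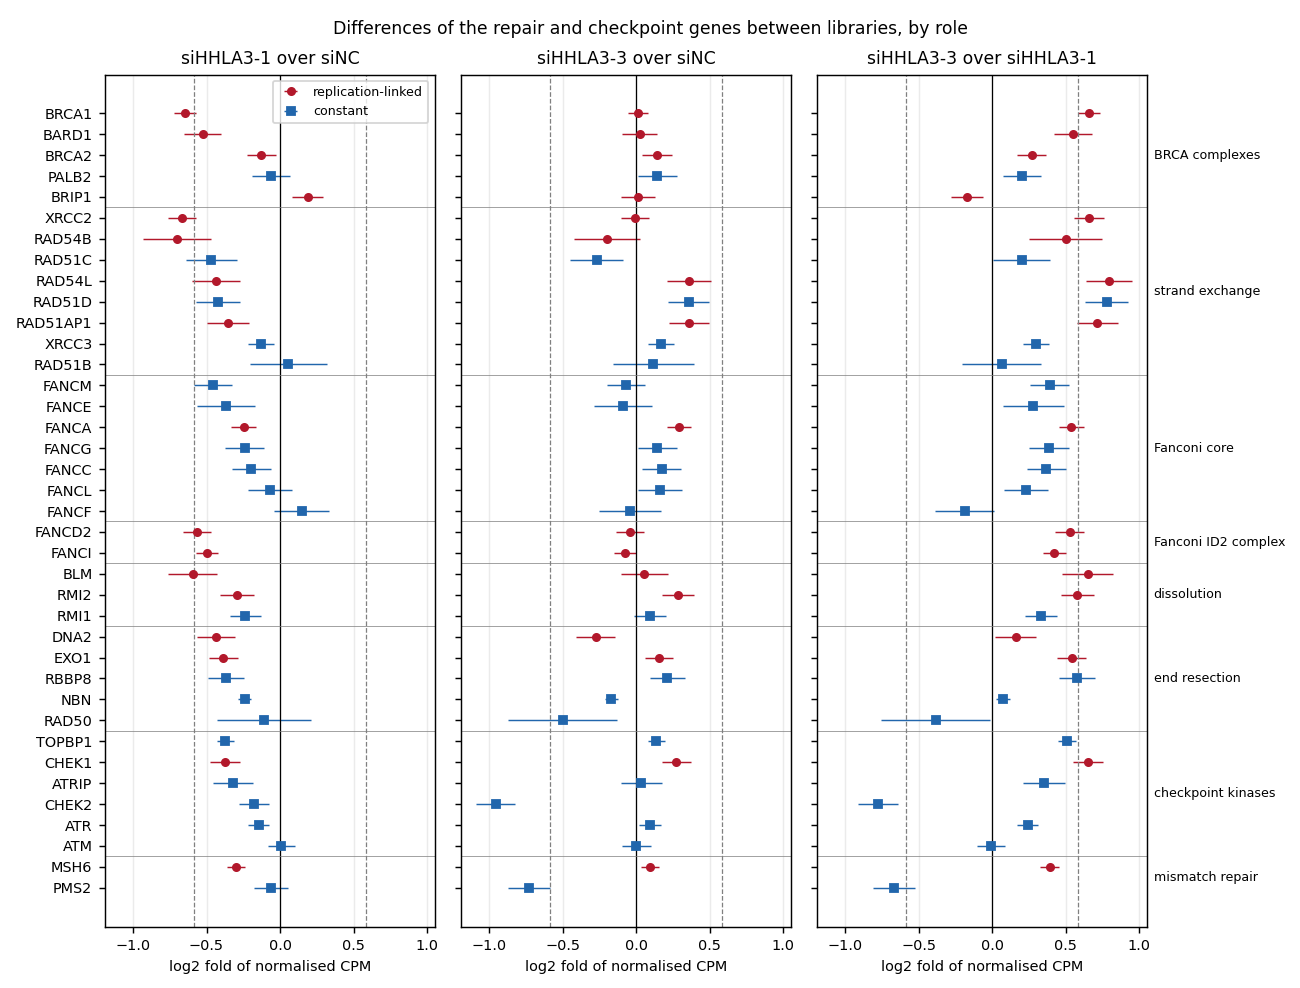
Differences of the 38 genes between libraries, as log2 folds of normalised CPM, grouped by role; bars are 95% counting intervals, dashed lines mark 1.5-fold, circles are replication-linked and squares constant genes. With siHHLA3-1, 34 of 38 genes lie left of 0, with siHHLA3-3 13 do, and CHEK2 and PMS2 stand at the far left of the middle and right panels.

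The BRCA group comprises BRCA1, BARD1, BRCA2, PALB2 and BRIP1. BRCA1, a ubiquitin ligase subunit that promotes end resection, had 117, 74.5 and 117 CPM. It was 1.57-fold lower with siHHLA3-1 than with siNC (interval 1.49 to 1.65), and the siNC and siHHLA3-3 levels differed by less than counting error. BARD1, the obligate partner of BRCA1, had 37.6, 26.1 and 38.2 CPM and was 1.44-fold lower with siHHLA3-1 (1.32 to 1.57). The proportion of the partners moved little: BRCA1 had 2.52, 2.32 and 2.50 TPM for each TPM of BARD1. BRCA2, which acts on single-stranded DNA at the step of filament loading, moved little, with 50.7, 46.4 and 55.8 CPM. PALB2, the bridge between BRCA1 and BRCA2, had 30.1, 28.8 and 33.2 CPM, and its siHHLA3-1 interval included the siNC level. BRIP1, a helicase that binds BRCA1, had 40.9, 46.6 and 41.3 CPM. With siHHLA3-1 it went the other way from its group, with a ratio of 0.18. With siHHLA3-3 its ratio was 0.01, and all 5 genes of the group lay above 0.

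BRCA1 therefore had low RNA in the siHHLA3-1 library alone, and the annotated gene lies on chromosome 17 from 43044295 to 43170245 on the minus strand (GENCODE 29, GRCh38). BRCA1P1, its listed pseudogene, had 17, 9 and 12 counts, beside the 3741, 2645 and 3197 counts of BRCA1. With 1 added to each value, as for CPM, the BRCA1 ratio was -0.57 on the deposited TPM. On the deposited FPKM, a unit scaled by gene length, the BRCA1 ratio was -0.54. Both were short of 1.5-fold after this addition. The TPM of BRCA1 without it were 42.9, 28.5 and 45.1.

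The strand exchange group comprises the subunits of the BCDX2 and CX3 complexes and the proteins that help strand invasion. XRCC2, a subunit of the BCDX2 complex, had 64.6, 40.7 and 64.2 CPM. It was 1.59-fold lower with siHHLA3-1 (interval 1.48 to 1.70), with a ratio of -0.65, and its siHHLA3-3 interval included siNC. RAD51D, its direct partner, had 25.4, 19.0 and 32.6 CPM and was the highest of the constant genes in siHHLA3-3 over siHHLA3-1 (1.71-fold, 1.55 to 1.90). RAD51D shares 905 of its 11304 annotated exon bases with RAD51L3-RFFL on the same strand, so its values may hold reads of that gene. RAD51C, the subunit shared by both complexes, was below siNC with both siRNAs, at 18.8, 13.6 and 15.6 CPM. RAD51B, the fourth member of BCDX2, had 7.08, 7.35 and 7.68 CPM, with intervals that included no difference in each comparison. XRCC3, which pairs with RAD51C, had 65.3, 59.7 and 73.5 CPM. The annotated exons of XRCC3 share 5756 of 7507 bases with KLC1 on the opposite strand, and the use of strand in counting is not given, so its values may hold reads of KLC1. Partners within 1 complex thus had different patterns.

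RAD54L, a motor protein that moves along DNA during strand invasion, had 21.98, 16.2 and 28.1 CPM, with ratios of -0.41 with siHHLA3-1 and 0.34 with siHHLA3-3. Its ratio of 0.76 between the siHHLA3 libraries was the highest of the 38. RAD54L shares 806 of its 3212 annotated exon bases with LRRC41 on the opposite strand, so its values may hold reads of LRRC41. RAD51AP1, which stimulates strand exchange, followed a similar course with 26.8, 21.0 and 34.5 CPM. For RAD54L and RAD51AP1, siHHLA3-1 was the lowest and siHHLA3-3 the highest library, with intervals that left out the siNC level on either side. RAD54B, the paralogue of RAD54L, had only 12.1, 7.43 and 10.5 CPM. It was 1.62-fold lower with siHHLA3-1, with a wide interval of 1.38 to 1.90. RAD54B shares 3139 of its 5313 annotated exon bases with FSBP on the same strand, so its reads cannot be assigned to it alone.

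The 3′ untranslated regions (3′ UTRs) of XRCC2 are shown because they hold the 7-base sequence CAGAATG. Among the sequences scanned, it had the lowest difference of mean siHHLA3-1 ratios, carriers against other genes, measured in standard errors. It came from a scan of 16348 sequences over 10488 genes with at least 5 CPM; since it was chosen from the same ratios, it supports nothing about them. Carriers made up 18.9% of the searched genes, with a median of -0.09 against -0.02 for the others. Of the carriers, 8.24% were at least 1.5-fold lower with siHHLA3-1, against 2.29% of genes without it in or before the 3′ UTR. XRCC2 held it at 2 places, at chr7:152648085-152648091 and chr7:152647338-152647344 on the minus strand, printed with the 7 bases in capitals.
XRCC2, first place: gtatttctttaCAGAATGgatttgttaaac
XRCC2, next place: cagacagcttaCAGAATGggagaaaattgt
DNA2, NBN, RAD50, RAD51D and RAD54B also carried it. The 6 carriers had a median of -0.41 with siHHLA3-1 and the 32 other genes -0.29. With genes carrying either 7-base sequence in the 3′ UTR left out, BRCA1 alone remained at least 1.5-fold lower with siHHLA3-1, in place of 3 genes. BRCA1 itself held CAGAATG in the coding part of 4 of 10 transcripts. It was 1 of 11 genes with the sequence only before the 3′ UTR or across the stop codon, whose median was -0.35, against -0.29 for the 21 searched genes with neither. The part of the sequence in these levels was not tested.

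In the Fanconi core complex, 6 of 7 genes lay below siNC with siHHLA3-1, and no gene reached 1.5-fold in any comparison. FANCA, the scaffold partner of FANCG, had 75.9, 63.9 and 92.8 CPM, and its siHHLA3-3 level was 1.45-fold that of siHHLA3-1 (1.37 to 1.54). FANCG had 29.8, 25.2 and 32.9 CPM. FANCC, which forms a subcomplex with FANCE and FANCF, had 30.2, 26.4 and 34.0 CPM. These 3 genes shared the order siHHLA3-1, siNC, siHHLA3-3 from low to high. FANCL, the ubiquitin ligase of the complex, had 23.0, 21.97 and 25.7 CPM, and its siHHLA3-1 interval included siNC. FANCM, the translocase that brings the complex to DNA, had the lowest ratio of the group with siHHLA3-1 (-0.44), at 34.9, 25.5 and 33.4 CPM. FANCE had 14.7, 11.4 and 13.8 CPM. FANCF, the adaptor encoded in 1 exon, stood apart with 13.1, 14.5 and 12.7 CPM, a spread within counting error. FANCA shares 2302 of 9736 exon bases with ZNF276 and FANCL 452 of 2412 with VRK2, both on the opposite strand.

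The substrates of the core complex moved as a pair. FANCD2 had 64.5, 43.5 and 62.6 CPM and FANCI, with which it clamps onto DNA, 102, 72.3 and 96.9 CPM. Their folds below siNC with siHHLA3-1 were 1.48 (1.39 to 1.58) and 1.41 (1.34 to 1.49), just short of the 1.5-fold rule. FANCD2 had 0.631, 0.602 and 0.646 TPM for each TPM of FANCI, so the proportion of the partners hardly moved. With siHHLA3-3 the FANCD2 interval included siNC, and FANCI was 1.05-fold lower (1.001 to 1.11).

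In the dissolution complex, which separates joined chromosomes without crossing over, all 3 genes lay below siNC with siHHLA3-1. BLM, its helicase, had 21.6, 14.3 and 22.5 CPM. Its fold below siNC was 1.51 (1.34 to 1.70), but its ratio of (CPM + 1) was -0.56, so it was not counted. RMI2 had 40.2, 32.7 and 48.9 CPM, and RMI1, the constant partner, 46.7, 39.7 and 49.9 CPM. BLM thus showed the larger difference with siHHLA3-1 and RMI2 the larger with siHHLA3-3.

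**Figure D2:**
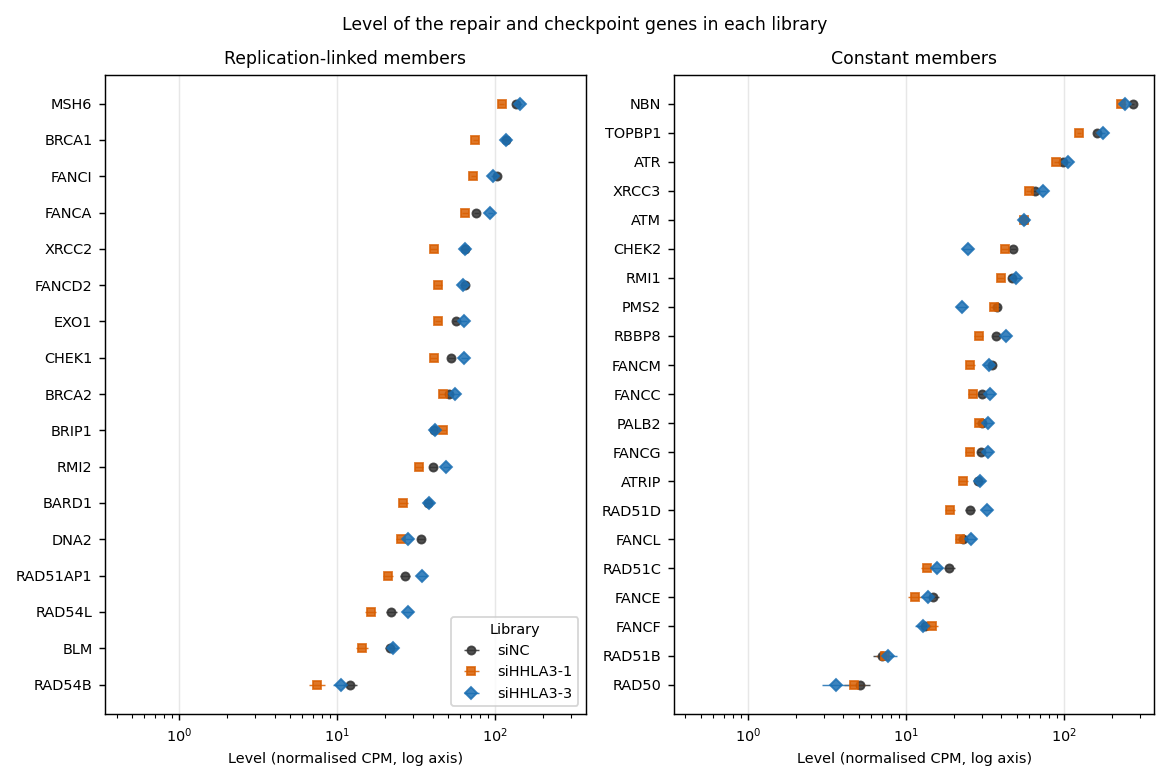
Level of each gene in the 3 libraries in normalised CPM on a log axis, with replication-linked genes in the left panel and constant genes in the right; bars are 95% counting intervals. In the left panel the siHHLA3-1 squares lie lowest for 16 of 17 genes, and in the right panel the siHHLA3-3 diamonds of CHEK2 and PMS2 lie to the left of the other libraries.

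The end resection genes did not share a pattern with siHHLA3-3. EXO1, a nuclease of long-range resection, had 56.6, 43.3 and 63.0 CPM. DNA2, the nuclease of the parallel route, was below siNC with both siRNAs, at 34.0, 25.1 and 28.1 CPM. RBBP8, known as CtIP, which starts resection, had 37.1, 28.8 and 43.0 CPM. NBN, the regulatory subunit of the complex with RAD50, was the most abundant of the 38 by length-scaled level, with 150.4, 132 and 140 TPM, in the 94.4th percentile of genes in siNC. Its levels were 271, 229 and 241 CPM, lower with both siRNAs by amounts of -0.24 and -0.17. RAD50, an ATPase that tethers the ends, was listed with only 163, 167 and 98 counts, or 1.64, 1.59 and 1.22 TPM. NBN accordingly had 91.4, 83.6 and 115 times the TPM of RAD50, although their proteins act in 1 complex. In GENCODE 29, 7784 of 9771 exon bases of RAD50 are shared with the same-strand gene AC116366.3, so the low RAD50 values cannot be read as its level.

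Among the checkpoint genes, CHEK2 stood out. CHEK2, the kinase that ATM activates, had 47.5, 42.0 and 24.5 CPM, from 1523, 1491 and 667 counts. It was 1.94-fold lower with siHHLA3-3 than with siNC (1.77 to 2.13), the lowest ratio of the 38 there (-0.93). With siHHLA3-1 it was 1.13-fold lower (1.05 to 1.22). CHEK1, the kinase downstream of ATR, was also lower with siHHLA3-1 but went the other way with siHHLA3-3: it had 52.7, 40.6 and 63.7 CPM, with ratios of -0.37 and 0.27. In length-scaled levels the pair changed order, with 0.891, 0.776 and 2.09 TPM of CHEK1 for each TPM of CHEK2. ATR had 98.5, 89.0 and 105 CPM and its partner ATRIP 28.6, 22.9 and 29.3 CPM. TOPBP1, which activates ATR, had 161, 124 and 177 CPM and was 1.29-fold lower with siHHLA3-1 (1.24 to 1.35). ATM was level across the libraries, with 55.7, 56.0 and 55.7 CPM. ATRIP shares 1515 of 5431 exon bases with TREX1 on the same strand.

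CHEK2 (chromosome 22, 28687743 to 28742422, minus strand) held the 7-base sequence GTGAACT. The same scan of 3′ UTRs had picked this sequence from the siHHLA3-3 ratios. It lay across the end of the coding part in 7 of 10 coding transcripts, starting 1 base before the stop codon, at chr22:28687894-28687900, and is shown with the 7 bases in capitals.
CHEK2: gctgctgtgttGTGAACTccgtggtttgaa
In 3′ UTRs this sequence was carried by 12.8% of searched genes, with a median of -0.20 against 0.00 without it, and 21.9% of carriers were at least 1.5-fold lower with siHHLA3-3. A further 10.7% of genes carried it only before the 3′ UTR or across the stop codon, with a median of -0.09, and 10.4% of those were at least 1.5-fold lower. Of genes with it in neither place, 3.19% were. Among the 38, ATM, DNA2, FANCF, FANCI and RAD51B carried it in the 3′ UTR, and their median was -0.04 with siHHLA3-3, against 0.09 for the others. BRCA1, MSH6, NBN, PALB2, RAD50, RBBP8, TOPBP1 and XRCC2 carried it in the coding part and were not 1.5-fold lower with siHHLA3-3. The sequence was chosen from the same ratios, and a part in the CHEK2 level was not tested.

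Of the mismatch repair genes, MSH6, which recognises mispaired bases, had 135, 109 and 144 CPM. PMS2, a nuclease subunit that nicks the strand with the error, had 37.3, 35.8 and 22.6 CPM, from 1198, 1273 and 614 counts. PMS2 was 1.66-fold lower with siHHLA3-3 than with siNC (1.501 to 1.83), and 1.04-fold lower with siHHLA3-1, with an interval that included no difference (0.962 to 1.13). MSH6 had 2.05, 1.74 and 3.62 TPM for each TPM of PMS2. PMS2 held no GTGAACT in its annotated transcripts. It lies on chromosome 7 from 5973239 to 6009125 and has near-identical copies, among which reads can be divided. The copies PMS2CL, PMS2P1, PMS2P3 and PMS2P4 were listed with 14.4, 13.0, 10.5 and 2.02 CPM in siHHLA3-3 and 14.9, 16.7, 8.98 and 2.49 CPM in siNC. Their differences were each under 1.5-fold, and the fifth listed copy, PMS2P2, had 36, 25 and 27 counts. On the deposited FPKM, with 1 added to each value, the PMS2 ratio was -0.56, short of 1.5-fold, and that of CHEK2 was -0.80. CHEK2 shares 301 of 4493 exon bases with HSCB on the opposite strand.

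**Figure D3:**
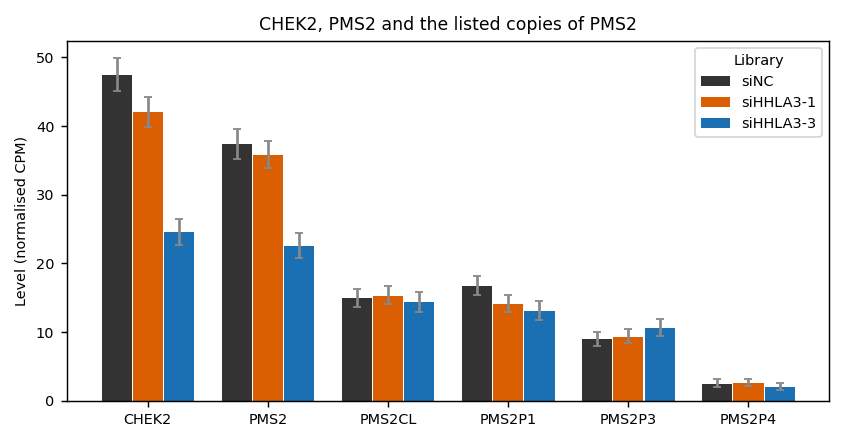
Normalised CPM of CHEK2, PMS2 and 4 listed copies of PMS2 in the 3 libraries, with bars from 0 and 95% counting intervals. The siHHLA3-3 bars of CHEK2 (24.5 CPM) and PMS2 (22.6 CPM) lie below those of siNC and siHHLA3-1, whereas the bars of PMS2CL hardly differ.

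The other genes of these pathways also lay mostly below siNC with siHHLA3-1. Over all genes with siHHLA3-1, 51.8% lay below 0 and 3.34% were at least 1.5-fold lower. With siHHLA3-3, 5.57% of all genes were at least 1.5-fold lower and 3.65% at least 1.5-fold higher. Of 38 other recombination and Fanconi genes above the filter, 27 lay below 0 with siHHLA3-1, with a median of -0.13, and 1 was at least 1.5-fold lower: RPA1, which coats single-stranded DNA, with 134, 83.6 and 129 CPM. With siHHLA3-3 the median was 0.04 and 1 gene was at least 1.5-fold lower. All 7 other mismatch repair genes lay below 0 with siHHLA3-1 (median -0.31) and had a median of 0.02 with siHHLA3-3. Of 17 other checkpoint genes, 2 were at least 1.5-fold lower with siHHLA3-1 (MDC1 and CDC25C), and CDC25A, a phosphatase that CHEK1 restrains, was at least 1.5-fold higher with siHHLA3-3, at 29.4, 33.5 and 62.7 CPM. The medians of that list were -0.09 and 0.03.

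Lists of 3 other repair routes were measured in the same way. The median of the 18 end joining genes was -0.11 with siHHLA3-1 and 0.04 with siHHLA3-3, and none reached 1.5-fold over siNC. PRKDC, the catalytic kinase of end joining, had 462, 314 and 488 CPM, with a ratio of 0.63 in siHHLA3-3 over siHHLA3-1, past 1.5-fold. The 17 base excision genes had medians of -0.23 and -0.03, and none reached 1.5-fold with either siRNA over siNC. The 17 nucleotide excision genes had medians of -0.04 and 0.10. CETN2 and RAD23B, subunits of the damage recognition complex of XPC, were at least 1.5-fold lower with siHHLA3-3, with ratios of -0.92 and -0.67. There, 5.57% of all genes were at least 1.5-fold lower.

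Markers of the dividing cell were lower together with the 38 genes with siHHLA3-1. Over all genes with siHHLA3-1, 51.8% lay below 0, 3.34% were at least 1.5-fold lower and 5.03% at least 1.5-fold higher. With siHHLA3-3 these shares were 51.5%, 5.57% and 3.65%. Of 29 replication and S-phase markers, 28 lay below 0 with siHHLA3-1 (median -0.52), 10 of them at least 1.5-fold lower. With siHHLA3-3 their median was 0.11, with 1 at least 1.5-fold lower. CDC45, part of the replicative helicase, had 80.6, 39.7 and 107 CPM. All 16 mitotic markers lay below 0 with siHHLA3-1 (median -0.71) and 14 were at least 1.5-fold lower. In siHHLA3-3, 15 of 16 lay below 0 (median -0.27), so mitotic markers were lower there while the replication-linked repair genes were not. The part of these markers in the repair gene values was not tested. A list of 12 E2F-related genes, E2F1 to E2F8 with TFDP1, RB1, RBL1 and RBL2, had medians of -0.20 and 0.12. It mixes E2F genes with their restrainers, so these medians are not a level of E2F. RB1, the restrainer of E2F, had 48.3, 27.4 and 45.4 CPM, and its relative RBL2 56.3, 64.6 and 26.8 CPM. The 17 p53 targets had medians of 0.05 and -0.01, with 3 at least 1.5-fold higher with each siRNA and SESN1 lower with both.

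**Figure D4:**
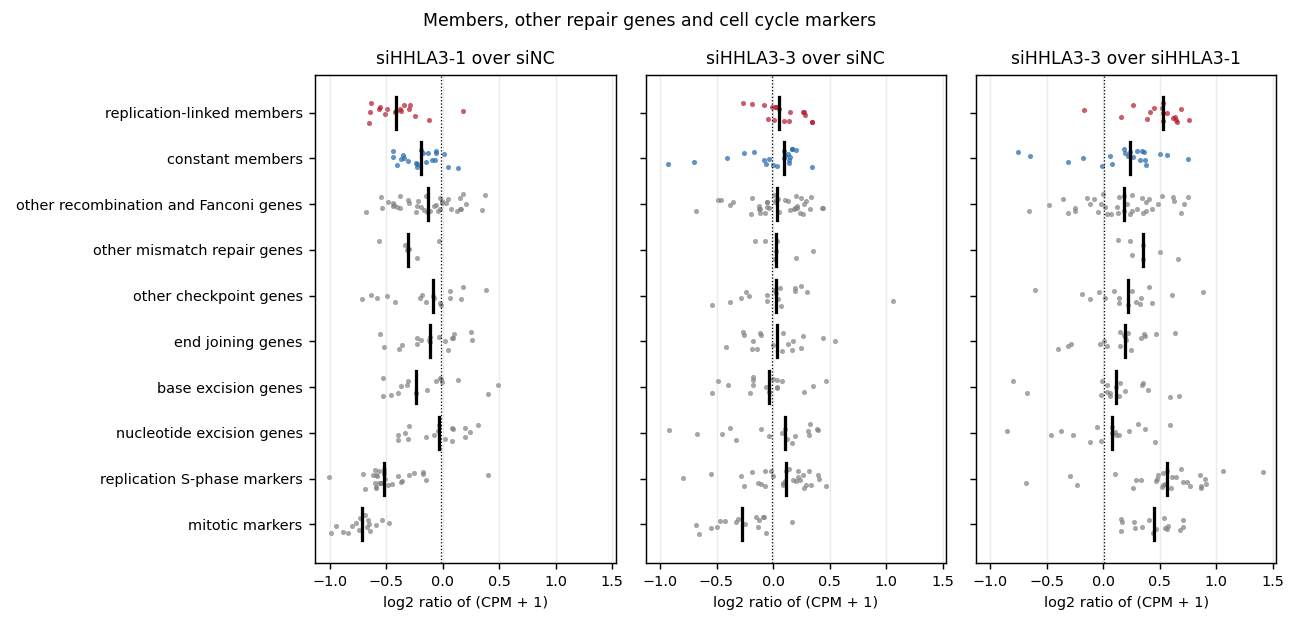
Log2 ratios of (CPM + 1) for the 38 genes by class, other repair lists and cell cycle markers; each point is a gene, thick bars are medians and the dotted line is the median of all genes above the filter. Medians in the left panel run from -0.71 for mitotic markers to -0.04 for nucleotide excision genes, with replication-linked genes at -0.41 and constant genes at -0.19.

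When the siHHLA3 libraries were treated as 2 samples against 1, no gene of the 38 passed. The fit has 1 residual degree of freedom and treats different siRNAs as replicates. A difference confined to 1 siHHLA3 library therefore counts partly as spread between replicates. edgeR's quasi-likelihood test called 0 of 13879 genes at an adjusted p under 0.05 (341 at an unadjusted p under 0.05) and DESeq2 called 5 (231 unadjusted). Of the 38 genes, 0 had an unadjusted p under 0.05 by either tool, and the lowest was that of CHEK2, 0.213 by edgeR (Benjamini-Hochberg adjusted p 1.00) and 0.229 by DESeq2.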

How the data were processed

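RNA was sequenced from 3 libraries, 1 per group. Per the submitters' processing notes the build was hg19 and the tools included HISAT2, HISAT, TopHat2 and Bowtie2, without versions. The counting program, annotation and strand use are not given in the sources used here. A table was deposited, with counts, CPM, FPKM and TPM per library. The deposited counts are whole reads per gene, not normalised. The deposited CPM are these counts scaled to a common library total. The authors' FPKM and TPM are also scaled by gene length, per the file headers. Genes with a summed FPKM under 1.00 are not in the table.

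Library totals were recovered from counts and CPM (unlisted share 0.305%, 0.355% and 0.325%) and scaled with TMM factors (0.978, 1.01 and 1.01) from edgeR 4.0.16 in R 4.3.3. Ratios used a pseudocount of 1 CPM, which understates differences of low genes, and a filter of a mean of at least 1 CPM. On the deposited TPM and FPKM, the pseudocount and the filter were 1 of that unit. Levels have exact 95% Poisson and folds exact 95% binomial intervals, for counting error only. DESeq2 1.42.0 served as an alternative. Other steps used Python 3.11.15, numpy 2.4.6, pandas 2.3.3, scipy 1.17.1 and matplotlib 3.10.9. Gene positions, exons and transcripts came from GENCODE 29 (GRCh38) by gene name. The steps were tested on counts simulated with counting error alone and the same changes in both siHHLA3 libraries. That simulation held no variation between cultures and no difference between siRNAs, so it cannot vouch for calls in these data.

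The genes, their classes and the other lists were chosen with earlier results of these data known. All 38 genes are named; of the other lists at most 4 genes each are eligible, those with the largest mean absolute ratios to siNC and a mean of at least 5 CPM. Copies of BRCA1 and PMS2, neighbouring genes, SESN1 and genes named in counts of 5 or fewer were added after their values were seen. Some genes that the rule names are left out of the text.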

Additional observations from a re-analysis of the deposited data

How the results depend on the processing

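No paired analysis was possible because each group holds 1 library, and for the same reason no library could be left out. The class medians kept their sign under all settings run: with siHHLA3-1 the replication-linked median ranged from -0.43 to -0.32 and the constant median from -0.24 to -0.11. Of 678 ratios of single genes under other scalings, pseudocounts and units, 649 stayed within their counting interval, 29 moved past it, and 0 of those past 1.5-fold changed sign. XRCC2, FANCD2 and FANCF, within counting error of siNC with siHHLA3-3, lay below it by the main scaling and above it by library totals, TPM and FPKM. The median of all genes lay between -0.01 and 0.05 under each scaling and unit. Counts of genes past the threshold depended on the threshold and on the unit. The share of all genes past each alternative threshold or unit was not computed. The counts that follow therefore show only how the calls among the 38 genes moved. A pseudocount of 1 was added in each unit, and the effects of unit and pseudocount were not separated. The 3 genes lower with siHHLA3-1 became 1 on the deposited TPM, 0 on the deposited FPKM, 1 without genes carrying either 7-base sequence, 0 at 2-fold and 18 at a looser log2 threshold of 0.32. The 2 lower with siHHLA3-3 became 1 on FPKM and 0 at 2-fold, and 0 were higher at 1.5-fold but 3 at the looser threshold. Between the siHHLA3 libraries, the 2 lower became 1 on FPKM and 0 at 2-fold, and the 7 higher became 4 on FPKM, 0 at 2-fold and 22 at the looser threshold. A further setting, chosen after the data were seen, left out 15 genes. They were those that share at least 5% of exon bases with another gene, and PMS2 for its listed copies. This removes CHEK2 and PMS2 and so leaves 0 lower with siHHLA3-3, over siNC or siHHLA3-1. It also removes RAD54B, so 2 of the 3 genes lower with siHHLA3-1 remain. RAD51D and RAD54L, both among the 7 higher in siHHLA3-3 over siHHLA3-1, are removed as well. Where no construction shows it, the cause was not tested. The lowest count of any of the 38 genes was 98, so depth limits mainly RAD50 and RAD51B, and variation between cultures is not known.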
